A study of Mus musculus with 4 samples.

Results

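The mucin and glycolipid glycosyltransferases were chosen by gene symbol, with earlier results of these data known, though no measured value entered the rule. They comprise the B3gnt, B3galt, B4galt, B4galnt, Galnt, Gcnt, Fut, St3gal, St6gal, St6galnac and St8sia families, together with C1galt1, its chaperone gene C1galt1c1 and the sialic acid hydroxylase gene Cmah. The array measured 74 of these among 18194 genes, and 54 of the 74 reached a log2 value of 6 on at least 1 array. The expression data came from mucosa scraped from the colon of 5-week-old 129S6/SvEv mice, with 1 array for each of 4 genotypes. VhlΔIE/Apcmin/+ mice lacked Vhl in the intestine and carried the Min allele of Apc, and VhlF/F/Apcmin/+ mice carried floxed Vhl with the Min allele. VhlΔIE mice lacked Vhl in the intestine with wild-type Apc, and VhlF/F mice carried floxed Vhl with wild-type Apc. The design text names 5, 3, 3 and 4 mice for these genotypes in that order. The sources used here do not say whether their RNA was pooled or which Cre transgene deleted Vhl. With 1 array per genotype no difference has a replicate check, and differences are given as values without a test. The one fit that allows a test, an additive model described after the Vhl comparisons, rests on 1 residual degree of freedom. In scraped mucosa fewer cells of a type and less RNA per cell cannot be told apart.

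Mucin-type O-glycans begin when a GalNAc-transferase of the Galnt family attaches GalNAc to serine or threonine. The first sugar is extended to core 1 by C1galt1 or to core 3 by B3gnt6, and Gcnt enzymes add branches that make core 2 and core 4. B3gnt, B3galt and B4galt enzymes lengthen these arms, and fucose, sialic acid or the GalNAc of the Sda antigen caps them. Glycolipids start from lactosylceramide, made by B4galt5 and B4galt6, and are built into gangliosides by B4galnt1, B3galt4 and sialyltransferases. In the colon these sugars cover Muc2, the gel-forming mucin of the mucus layer, and the membrane mucins of the epithelium. The Vhl protein recruits hypoxia-inducible factors (HIF) to a ubiquitin ligase so that they are destroyed, and the Min allele truncates Apc, a scaffold of the beta-catenin destruction complex.

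Values are the authors' log2 values, so a difference of 1 is 2-fold, and levels are compared between arrays and never between genes. Vhl itself differed by -1.61 between VhlΔIE/Apcmin/+ and VhlF/F/Apcmin/+ and by -1.36 between VhlΔIE and VhlF/F, and 14 of 14 HIF target genes were higher in each of these comparisons. Xist read 6.25 and 5.58 in the Vhl deleted arrays and 11.83 and 11.37 in the floxed arrays. Y-linked Eif2s3y read 8.80 in VhlΔIE/Apcmin/+, 7.27 in VhlF/F/Apcmin/+, 8.78 in VhlΔIE and 8.58 in VhlF/F, so the arrays differed in sex makeup, and its part in the differences cannot be told apart from that of genotype. The mean of 12 hepatocyte markers was 5.23 to 5.41 in the 3 other arrays and 8.63 in VhlF/F. Hoxd10, a hindgut patterning gene, read 9.13 in VhlF/F/Apcmin/+ and 5.38 to 6.77 in the other arrays.

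For 42 of the 54 members, 77.8%, the 4 arrays lay within 2-fold of each other, beside 92.7% of the 11871 genes above the same floor. The other 12, 22.2% of the 54, were at least 2-fold apart in at least 1 of 5 comparisons, beside 6.60% of genes. For 29 members the arrays lay within 1.5-fold, a limit for which no share of all genes is given. In the Apc mutant pair 6 members reached 2-fold higher with Vhl deletion and 4 reached 2-fold lower, against 2.82% and 1.52% of genes above the floor. In the Apc wild-type pair 2 members reached 2-fold higher and 5 reached 2-fold lower, against 2.27% and 1.60% of genes. The median difference of the members was 0.10 with the mutation and -0.03 without it, beside -0.02 in each case over all genes. Galnt6 was the only member at least 2-fold higher in both Apc backgrounds, and St8sia5 the only one at least 2-fold lower in both. Over the array 1.58% of genes were higher and 0.733% lower in both, so single members are near the background.

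**Figure D1:**
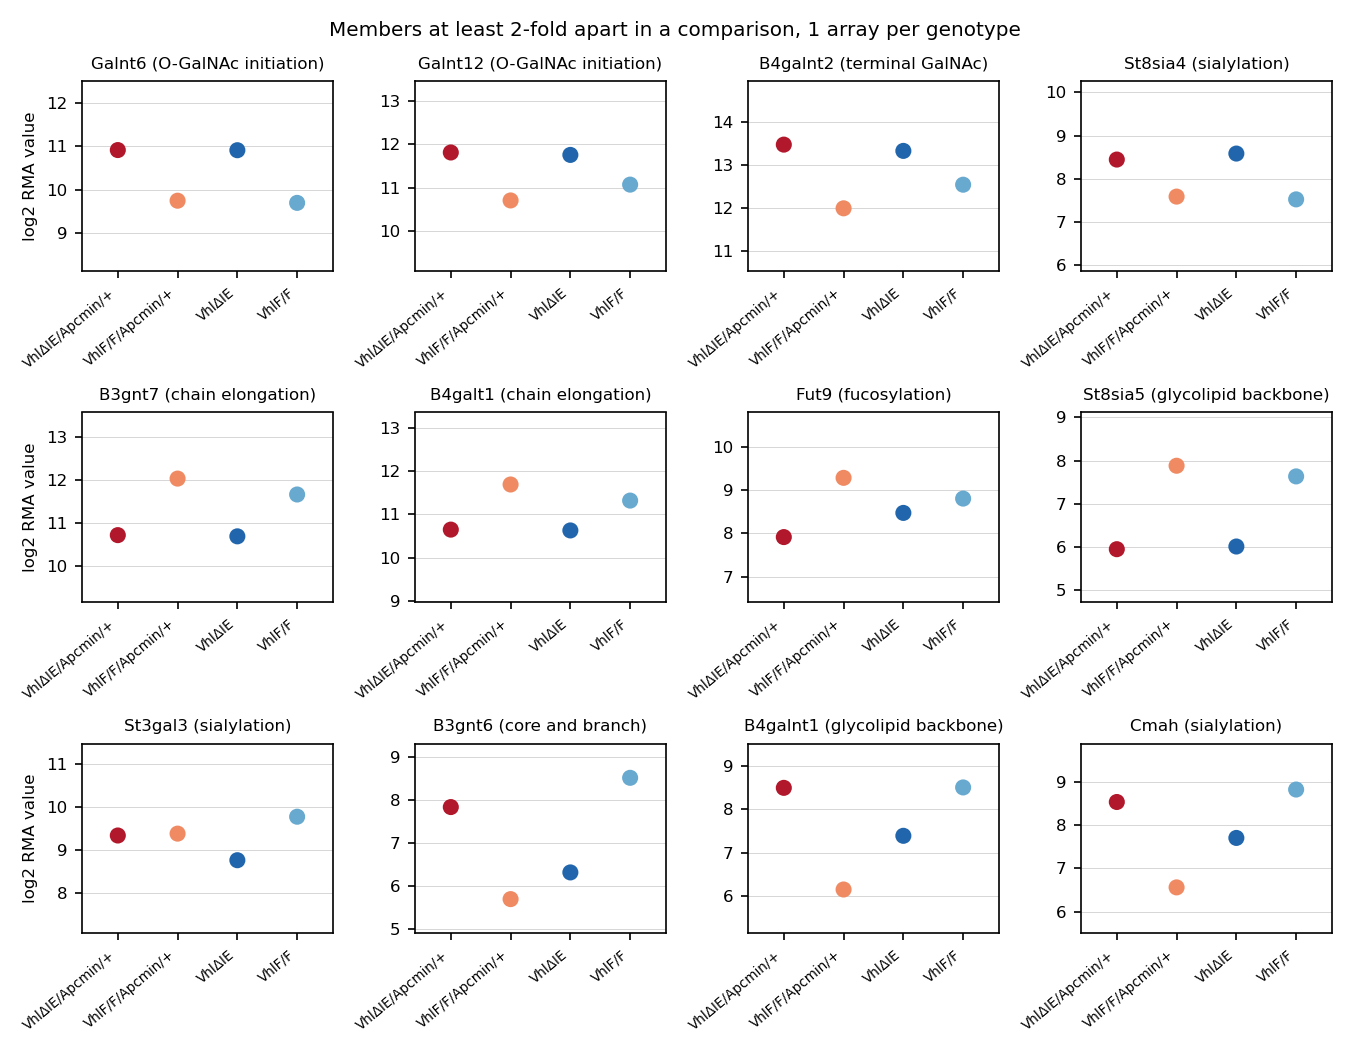
Log2 RMA value of the 12 members at least 2-fold apart in a comparison, with 1 point for each of the 4 genotype arrays and an axis of the same span in every panel. Galnt6, Galnt12, B4galnt2 and St8sia4 were higher in both Vhl deleted arrays, B3gnt7, B4galt1, Fut9 and St8sia5 were lower in both, and B3gnt6, B4galnt1 and Cmah were lowest in VhlF/F/Apcmin/+.

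The GalNAc-transferases that initiate O-glycosylation were mostly higher in the Vhl deleted arrays. The floor was passed by 11 Galnt members, of which 9 were higher and 2 lower with the Apc mutation, with a median difference of 0.43, and 8 were higher and 3 lower without it, with a median of 0.29. Over all genes 46.5% and 46.6% were higher in these comparisons. Galnt6 read 10.91 in VhlΔIE/Apcmin/+ against 9.74 in VhlF/F/Apcmin/+, and 10.91 in VhlΔIE against 9.69 in VhlF/F. The deleted arrays lay above both floxed arrays, by 1.17 and 1.22. Its other 2 probe sets gave 1.14 and 1.04 with the Apc mutation and 1.30 and 1.10 without it.

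Galnt12, an initiating enzyme known for its expression in the colon, read 11.81 in VhlΔIE/Apcmin/+ against 10.70 in VhlF/F/Apcmin/+, and 11.76 in VhlΔIE against 11.07 in VhlF/F. The differences were 1.11 and 0.69, so it passed 2-fold only with the Apc mutation. Galnt3 came close, with 10.74 against 9.78 for the Apc mutant pair and 10.53 against 10.07 for the Apc wild-type pair. Its other 2 probe sets gave 1.67 and 0.63 with the mutation and 0.96 and 0.15 without it. Galnt4 and Galnt7, which can add GalNAc to peptides that already carry it, differed by 0.46 and 0.40 with the mutation and by 0.30 and 0.32 without it. Galnt1, a widely expressed initiating enzyme, differed by 0.43 and 0.21. Galnt2, another widely expressed enzyme, differed by 0.12 and -0.02. Its other 2 probe sets, above the floor, gave 0.41 and 0.41 with the mutation and 0.21 and 0.36 without it. Galnt5, Galnt10, Galnt11 and Galnt16 lay between -0.09 and 0.55 in the Vhl comparisons by their brightest probe sets. Galnt10 depended on the probe set. Its other 2 above the floor gave 1.32 and 0.74 with the mutation and 1.33 and 0.53 without it. The first was past 2-fold in both backgrounds, but it passed the floor only in the Vhl deleted arrays, where it was high. It read 6.71 and 6.87 there, with the Apc mutation first, and 5.39 and 5.54 in the floxed arrays. Galnt9, Galnt13, Galnt14, Galnt15 and Galnt18 stayed below the floor on every array.

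B4galnt2, which adds the terminal GalNAc of the Sda antigen on colonic mucin and glycolipid, was also higher with Vhl deletion. It read 13.47 in VhlΔIE/Apcmin/+ against 11.99 in VhlF/F/Apcmin/+, and 13.32 in VhlΔIE against 12.54 in VhlF/F. The differences were 1.48 and 0.78. Its 2 other probe sets above the floor read lower and gave larger differences, of 2.03 and 2.14 with the Apc mutation and of 1.39 and 1.47 without it. By these the gene was at least 2-fold higher in both backgrounds, and by the brightest probe set in 1 of them. The fourth probe set lay below the floor. B4galnt4, which makes LacdiNAc, differed by 0.22 and 0.12.

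The 250 bases before the annotated starts of Galnt6, B4galnt2 and B3gnt7 are printed because the first 2 genes were higher and B3gnt7 was lower in both Vhl deleted arrays. Each is given 5′ to 3′ on its gene's strand, from RefSeq on GRCm38.p6, with matches to the cores ACGTG and GCGTG of the HIF binding motif, on either strand, in capitals.
Galnt6: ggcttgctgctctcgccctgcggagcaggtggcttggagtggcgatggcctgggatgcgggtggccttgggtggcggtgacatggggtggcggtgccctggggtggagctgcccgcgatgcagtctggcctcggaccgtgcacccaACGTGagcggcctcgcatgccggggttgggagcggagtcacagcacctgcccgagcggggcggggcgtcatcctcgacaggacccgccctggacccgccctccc
B4galnt2: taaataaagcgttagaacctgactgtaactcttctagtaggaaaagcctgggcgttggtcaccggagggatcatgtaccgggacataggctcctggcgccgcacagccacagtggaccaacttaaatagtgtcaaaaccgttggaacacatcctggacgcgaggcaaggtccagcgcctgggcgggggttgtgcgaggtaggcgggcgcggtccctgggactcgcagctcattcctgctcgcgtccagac
B3gnt7: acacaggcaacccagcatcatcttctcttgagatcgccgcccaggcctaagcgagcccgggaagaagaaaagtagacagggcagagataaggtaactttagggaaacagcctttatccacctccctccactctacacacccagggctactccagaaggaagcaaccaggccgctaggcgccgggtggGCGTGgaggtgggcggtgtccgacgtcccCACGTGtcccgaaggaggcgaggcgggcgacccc
The Galnt6 window is chr15:100729377-100729626 on the minus strand and holds 1 match, whose first base is at -104 counted from the start. A second Galnt6 start, with the window chr15:100720478-100720727, has none. The B4galnt2 window, chr11:95914872-95915121 on the minus strand, has none. The B3gnt7 window, chr1:86302971-86303220 on the plus strand, holds 3, and the 2 nearest to the start overlap. Windows of this length were found for 53 of the 74 members, and 41 of their 73 windows, 56.2%, held a match, against 38.6% of 32851 windows of all genes. A match describes letters and is no binding site.

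Core and branch enzymes did not share a direction. C1galt1, the core 1 synthase, read 10.11 in VhlΔIE/Apcmin/+, 10.06 in VhlF/F/Apcmin/+, 10.64 in VhlΔIE and 10.67 in VhlF/F. It differed by 0.05 and -0.03 with Vhl deletion. C1galt1c1, the chaperone without which the core 1 synthase is inactive, read 11.25 in VhlΔIE/Apcmin/+ against 10.87 in VhlF/F/Apcmin/+, and 11.25 in VhlΔIE against 11.30 in VhlF/F. Gcnt1, which makes core 2, read 10.17 against 10.12 in the Apc mutant pair and 10.44 against 10.16 in the Apc wild-type pair. Neither differed by more than 0.38 with Vhl deletion. Gcnt3, which makes core 2 and core 4 on mucins, read 9.65 in VhlΔIE/Apcmin/+ against 9.78 in VhlF/F/Apcmin/+, and 9.51 in VhlΔIE against 10.22 in VhlF/F. Its VhlF/F array was the highest, and the 3 probe sets differed by -0.84 to -0.70 without the Apc mutation and by -0.13 to 0.08 with it. Gcnt2, the I-branching enzyme, differed by -0.87 and -0.59. Gcnt7 stayed below the floor.

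Of the enzymes that lengthen the arms, B3gnt7 and B4galt1 were lower in both Vhl deleted arrays. B3gnt7, which adds GlcNAc to growing polylactosamine and keratan sulfate chains, read 10.72 in VhlΔIE/Apcmin/+ against 12.03 in VhlF/F/Apcmin/+, and 10.69 in VhlΔIE against 11.66 in VhlF/F. Both deleted arrays lay below both floxed arrays, with differences of -1.31 and -0.97. B4galt1, the main galactosyltransferase acting on GlcNAc, read 10.65 against 11.69 in the Apc mutant pair and 10.63 against 11.32 in the Apc wild-type pair. It differed by -1.05 and -0.69. B3gnt2, a polylactosamine synthase, differed by -0.68 and -0.32, while B3gnt3, which extends core 1, was higher by 0.31 and 0.65. B3galt5, which makes type 1 chains in the gut, was higher by 0.42 and 0.22, and all 4 of its probe sets shared that direction. B4galt4 differed by -0.29 and -0.65, B4galt3 by -0.20 and -0.16, and B3gnt9 by 0.01 and 0.02. In each background this class had 3 of 8 members higher and 5 lower, with a median of -0.24. Over all genes 46.5% were higher with the Apc mutation and 46.6% without it, with a median of -0.02 in each case. In a class this small the count lies near that share. B3galt1, B3galt2, B4galt2, B3gnt4 and B3gnt8 stayed below the floor.

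**Figure D2:**
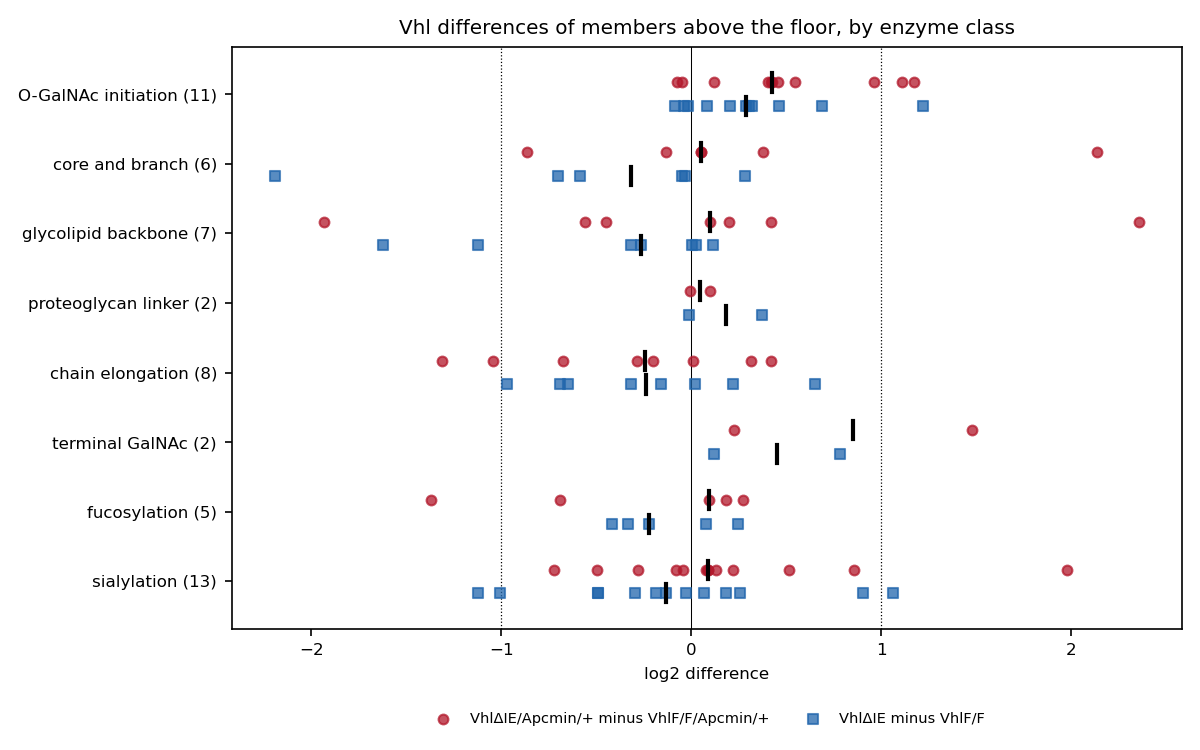
Log2 difference between Vhl deleted and floxed arrays for each of 54 members above the floor, by enzyme class, with the number of members in brackets. Red circles are the Apc mutant pair, blue squares the Apc wild-type pair, black bars the class medians and dotted lines 2-fold. The median of the O-GalNAc initiation class lay at 0.43 and 0.29 and that of chain elongation at -0.24 in both pairs.

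Markers of several cell types moved with Vhl status too, and their part in these differences was not tested. The mean log2 level of 12 endothelial markers was 7.72 and 7.81 in the Vhl deleted arrays, with the Apc mutation first, and 6.77 and 6.61 in the floxed ones, and 12 of 12 were higher in each comparison. For 11 proliferation genes it was 9.56 and 9.73 in the deleted arrays and 8.52 and 8.89 in the floxed ones, and 11 of 11 were higher. For 12 absorptive colonocyte markers it was 12.47 and 12.55 in the deleted arrays and 13.10 and 13.22 in the floxed ones, with 3 and 2 of 12 higher. For 9 smooth muscle markers it was 10.32 and 10.42 in the deleted arrays and 10.75 and 10.94 in the floxed ones, and 0 of 9 were higher. Markers of goblet cells, which secrete Muc2, did not follow Vhl status. Of 12, 7 were higher with the Apc mutation and 5 without it, and their means were 12.04 and 11.91 in the deleted arrays and 11.60 and 12.05 in the floxed ones.

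Among enzymes of the glycolipid backbone, St8sia5, a sialyltransferase of complex gangliosides, was lower with Vhl deletion. It read 5.95 in VhlΔIE/Apcmin/+ against 7.88 in VhlF/F/Apcmin/+, and 6.01 in VhlΔIE against 7.63 in VhlF/F. The differences were -1.93 and -1.62, and both deleted arrays lay near the floor, where RMA compresses differences. It has 1 probe set, of a kind that matches several transcripts of the gene. B4galt5, a lactosylceramide synthase, read 9.25 in VhlΔIE/Apcmin/+ against 9.70 in VhlF/F/Apcmin/+, and 9.12 in VhlΔIE against 9.43 in VhlF/F. It differed by -0.45 and -0.32, while B4galt6, the other such synthase, differed by 0.20 and 0.02. B3gnt5, which starts the lacto series, differed by -0.56 and -0.26. B3galt4, the GM1 synthase, differed by 0.10 and 0.11. St3gal5, which makes GM3, differed by 0.42 and 0.00, and St8sia1, which makes GD3, stayed below the floor. B3galt6 and B4galt7, which build the linker of proteoglycans, differed by -0.01 to 0.37.

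Among fucosyltransferases only Fut9 reached 2-fold. Fut9, which makes Lewis x, read 7.92 in VhlΔIE/Apcmin/+ against 9.29 in VhlF/F/Apcmin/+, and 8.48 in VhlΔIE against 8.81 in VhlF/F. It differed by -1.37 with the Apc mutation and by -0.33 without it. Its other 2 probe sets gave -1.02 and -1.35 with the mutation and -0.05 and -0.22 without it. The first of these passed the floor only in VhlF/F/Apcmin/+, at 6.21. Fut4, which also fucosylates lactosamine chains, differed by -0.69 and -0.42. Fut2, the secretor enzyme that makes the H antigen on intestinal mucin, read 10.42 in VhlΔIE/Apcmin/+ against 10.15 in VhlF/F/Apcmin/+, and 10.23 in VhlΔIE against 10.46 in VhlF/F. Its differences of 0.27 and -0.23 had opposite signs and were both small. Fut8, the core fucosyltransferase of N-glycans, read 10.78 against 10.68 in the Apc mutant pair and 10.79 against 10.55 in the Apc wild-type pair. Fut11 differed by 0.18 and 0.08, and Fut1, Fut7 and Fut10 stayed below the floor.

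Sialyltransferases were split. St8sia4, a polysialyltransferase, read 8.45 in VhlΔIE/Apcmin/+ against 7.59 in VhlF/F/Apcmin/+, and 8.58 in VhlΔIE against 7.52 in VhlF/F. Both deleted arrays lay above both floxed arrays, by 0.86 and 1.06. Its other probe set, below the floor, gave 0.20 and -0.39, and the mean over both probe sets lowered the difference without the Apc mutation to 0.33, under 2-fold. The mean of 10 macrophage and dendritic cell markers was 8.60 and 8.66 in the deleted arrays and 8.27 and 7.90 in the floxed ones. Their part was not tested. St3gal3, which sialylates type 1 chains, read 9.34 in VhlΔIE/Apcmin/+ against 9.38 in VhlF/F/Apcmin/+, and 8.77 in VhlΔIE against 9.78 in VhlF/F. It differed by -0.04 with the Apc mutation and by -1.01 without it, and its other probe set gave -0.22 and -0.93.

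The remaining sialyltransferases were under 2-fold apart in every comparison. St3gal4, which caps lactosamine with sialic acid, read 11.16 in VhlΔIE/Apcmin/+ against 10.95 in VhlF/F/Apcmin/+, and 11.25 in VhlΔIE against 11.00 in VhlF/F. St3gal6, with a similar action, read 10.80 against 11.30 in the Apc mutant pair and 10.83 against 11.13 in the Apc wild-type pair. St6gal1, which sialylates N-glycans, read 11.26 against 11.53 and 11.15 against 11.64 in the same pairs. St3gal4 was thus slightly higher in both deleted arrays, and St3gal6 and St6gal1 were lower. St6galnac6, a ganglioside and mucin sialyltransferase, differed by 0.09 and -0.03. St8sia6, which makes disialic acid on O-glycans, was higher by 0.51 and 0.90 but reached no more than 6.26. St6galnac4 differed by -0.72 and -0.19 and St6galnac2 by -0.08 and -0.49. St3gal2, St6galnac5 and St8sia2 lay between -0.13 and 0.18. St3gal1, St6gal2, St6galnac1, St6galnac3 and St8sia3 stayed below the floor. St6galnac1, the sialyl-Tn synthase, read 4.73 and 4.83 in the Vhl deleted arrays and 4.85 and 4.80 in the floxed ones.

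B3gnt6, B4galnt1 and Cmah differed in opposite directions with Vhl deletion, higher with the Apc mutation and lower without it. B3gnt6, the core 3 synthase, read 7.83 in VhlΔIE/Apcmin/+ against 5.70 in VhlF/F/Apcmin/+, a difference of 2.13, and 6.32 in VhlΔIE against 8.51 in VhlF/F, a difference of -2.19. B4galnt1, which makes GM2 and GD2, read 8.50 in VhlΔIE/Apcmin/+ against 6.14 in VhlF/F/Apcmin/+, and 7.39 in VhlΔIE against 8.51 in VhlF/F. Its differences were 2.35 and -1.12. Cmah, which turns the sialic acid Neu5Ac into Neu5Gc, read 8.54 in VhlΔIE/Apcmin/+ against 6.56 in VhlF/F/Apcmin/+, and 7.71 in VhlΔIE against 8.83 in VhlF/F. Its differences were 1.98 and -1.12. In all 3 genes VhlF/F/Apcmin/+ was the lowest array, VhlΔIE the next, and VhlF/F the highest. For B4galnt1 VhlΔIE/Apcmin/+ minus VhlF/F was -0.01.

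A second Cmah probe set gave 1.89 with the Apc mutation and -0.64 without it. It passed the floor only in the arrays where it was high, at 6.54 in VhlΔIE/Apcmin/+ and 6.49 in VhlF/F. Below the floor, it read 4.65 in VhlF/F/Apcmin/+ and 5.85 in VhlΔIE. B3gnt6 has no second probe set, and that of B4galnt1 lay below the floor with differences of 0.20 and -0.14. The mean over its probe sets was 1.28 with the mutation. Such opposite 2-fold differences were seen in 3 of 54 members, 5.56%, and in 9 of 11871 genes, 0.0758%, a count made after the values were seen. The other 6 genes were Ang4, an antimicrobial ribonuclease, Alpi, intestinal alkaline phosphatase, Arg1, the arginase of the urea cycle, the cytochrome P450 genes Cyp2c65 and Cyp2e1, and Tmigd1. Ang4 differed by 4.30 with the Apc mutation and by -1.44 without it. No gene was 2-fold higher without the mutation and 2-fold lower with it.

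Genes of the sampled region and of other tissues moved in the same arrays. Hoxd10 read 6.77 in VhlΔIE/Apcmin/+ against 9.13 in VhlF/F/Apcmin/+, and 5.38 in VhlΔIE against 6.52 in VhlF/F. Hoxd13 read 9.05 against 11.08 in the Apc mutant pair and 8.65 against 9.13 in the Apc wild-type pair. Both Hox genes were highest in VhlF/F/Apcmin/+ and lowest in VhlΔIE. Of 7 distal colon Hox genes above the floor, 3 were at least 2-fold lower with Vhl deletion in the Apc mutant pair and 1 in the Apc wild-type pair. Over all genes 1.52% and 1.60% were at least 2-fold lower in these pairs. In the Apc mutant pair 2 of the 7 went the other way, Hoxa10 by 0.57 and Hoxa11 by 0.50. These 2 were lowest in VhlF/F/Apcmin/+, at 8.11 and 6.41. Fabp2, a small intestinal enterocyte marker, read 11.74 against 9.73 in the Apc mutant pair and 11.31 against 12.17 in the Apc wild-type pair. Its list was split. In the Apc mutant pair 4 of 12 markers were higher with Vhl deletion, with a median of -0.22. All 4, Fabp2, Alpi, Apoa1 and Mttp, were at least 2-fold higher, beside 2.82% of genes. Of the 12 markers 1 was 2-fold lower, beside 1.52% of genes. Alpi is also among the 6 other genes with opposite differences, while Mttp was higher in both pairs. In the Apc wild-type pair 3 of 12 were higher, with a median of -0.40. The mean of the 12 was 7.73 against 7.52, and 8.24 against 8.69. Apoa4, of the same list, differed by -1.47 and 0.25. Hepatocyte markers averaged 5.28 in VhlΔIE/Apcmin/+ and 8.63 in VhlF/F, the arrays where the 3 glycan genes were highest. Of 12 goblet cell markers 2, Retnlb and Spdef, were at least 2-fold higher in the Apc mutant pair, beside 2.82% of genes. In that pair 7 of 12 were higher and the median was 0.14. Retnlb read 10.36 against 6.35 in the Apc mutant pair and 9.64 against 10.12 in the Apc wild-type pair. The part of these markers in the result was not tested. The stretch of colon scraped cannot be told apart from genotype with 1 array each.

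**Figure D3:**
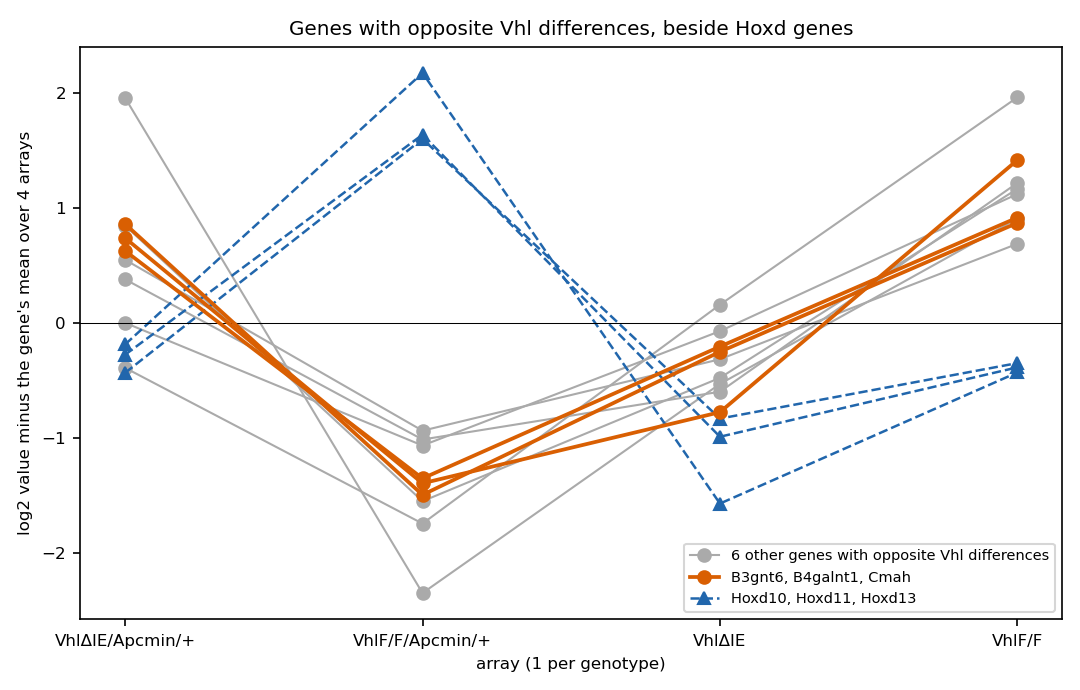
Log2 value minus the gene's own mean over the 4 arrays, with arrays on the horizontal axis and lines joining the values of a gene. B3gnt6, B4galnt1 and Cmah (orange) and 6 other genes (grey) were lowest in VhlF/F/Apcmin/+, where Hoxd10, Hoxd11 and Hoxd13 (blue, dashed) were highest. Other distal colon Hox genes are not drawn. Of these, Hoxb13 was also highest in that array, Hoxa10 and Hoxa11 were lowest there, and Hoxa13 read 7.87 there against 7.88 in VhlF/F.

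The Vhl comparisons of the Apc backgrounds share no array. Of 54 members 43, or 79.6%, had the same sign in both, beside 75.9% of all genes. Across the 54 members, which are not independent replicates, Pearson's r between the Vhl differences of the backgrounds was 0.19 and Spearman's rho 0.53. Across the 51 left without B3gnt6, B4galnt1 and Cmah, removed after their values were seen, these were 0.82 and 0.81. Across all genes they were 0.73 and 0.69. The points share the 4 arrays and their normalization. The Vhl difference with the mutation exceeded that without it by at least 1 for the 3 genes alone, against 1.27% of genes, and fell short of it by at least 1 for Fut9, at -1.04, against 0.295% of genes.

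An additive fit of Vhl and Apc status with limma has 1 residual degree of freedom, and its only measure of spread is the departure of the 4 arrays from additivity. At a Benjamini-Hochberg adjusted p of 0.05 over all genes, Galnt6 and St8sia4 were called higher and B3gnt7 and St8sia5 lower with Vhl deletion, against 3.64% and 2.27% of genes. Before adjustment it called 12 members higher and 11 lower at 0.05, against 15.4% and 16.6% of genes. For Apc status limma called 0 members in either direction after adjustment. Before adjustment it called Galnt11 higher and B4galt6, C1galt1 and St3gal5 lower, against 3.75% and 5.60% of genes.

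**Figure D4:**
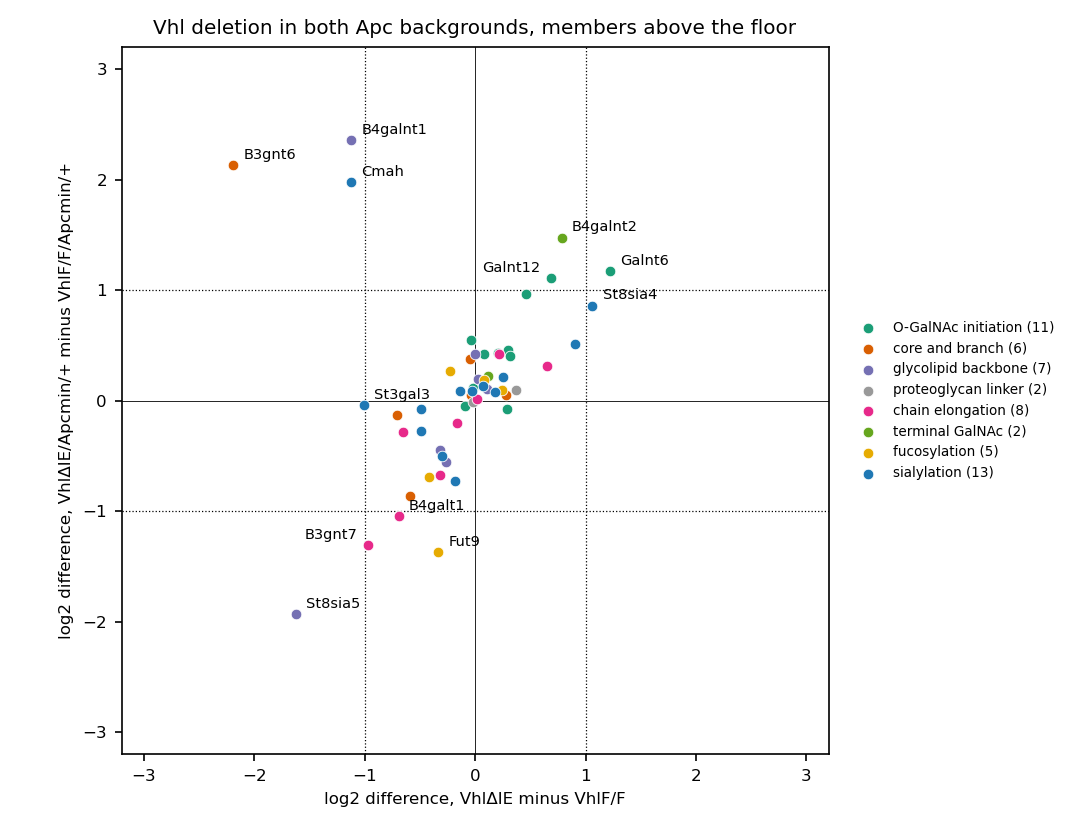
Log2 difference of VhlΔIE minus VhlF/F (horizontal) and of VhlΔIE/Apcmin/+ minus VhlF/F/Apcmin/+ (vertical) for 54 members, coloured by class, with dotted lines at 2-fold. Most members lie along the rising diagonal, Galnt6 and St8sia5 past 2-fold on both axes, and B3gnt6, B4galnt1 and Cmah lie at the upper left.

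With the Apc mutation few members reached 2-fold, though their share was above that of all genes in 1 direction of each comparison. With floxed Vhl, 0 members reached 2-fold higher and 3, or 5.56%, reached 2-fold lower, against 0.118% and 0.901% of genes. The 3 were B3gnt6 at -2.81, B4galnt1 at -2.36 and Cmah at -2.27. With deleted Vhl, 2 members, or 3.70%, reached 2-fold higher and 0 reached 2-fold lower, against 0.202% and 0.118% of genes. They were B3gnt6 at 1.51 and B4galnt1 at 1.11, and Cmah differed by 0.83. Among the members under 2-fold apart in every comparison, differences ran from -0.72 to 0.63 with floxed Vhl and from -0.52 to 0.46 with deleted Vhl. C1galt1 was lower with the Apc mutation in both, at -0.60 and -0.52, but its other probe sets gave 0.11 and -0.17 in the floxed pair and 0.12 and 0.02 in the deleted pair. Galnt11 was higher by 0.63 and 0.27.

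**Figure D5:**
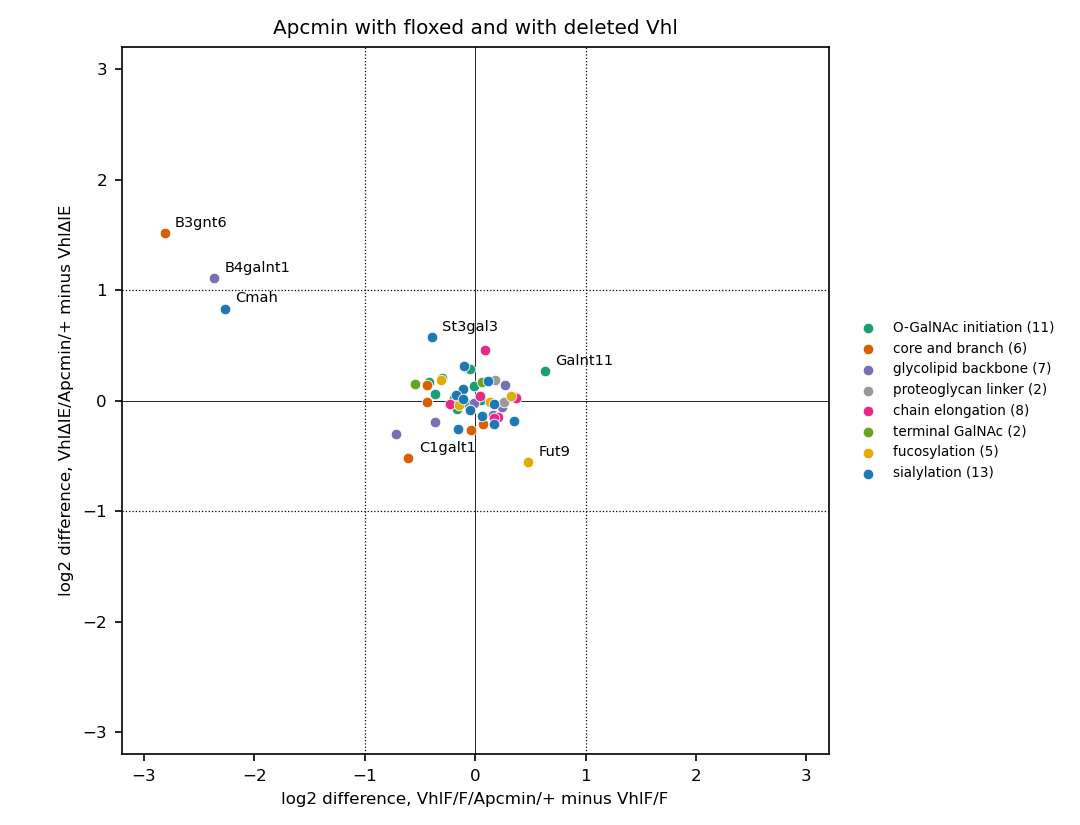
Log2 difference of VhlF/F/Apcmin/+ minus VhlF/F (horizontal) and of VhlΔIE/Apcmin/+ minus VhlΔIE (vertical) for 54 members, coloured by class, with dotted lines at 2-fold. B3gnt6, B4galnt1 and Cmah lie far to the left and above 0, and all other members lie within 2-fold on both axes.

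Between VhlΔIE/Apcmin/+ and VhlF/F, which differ in both genes, 1 member was at least 2-fold higher and 1 lower, against 2.26% and 1.68% of genes. These were Galnt6 at 1.22 and St8sia5 at -1.69. B4galnt2 differed by 0.93, St8sia4 by 0.92, B3gnt7 by -0.94 and Fut9 by -0.89. Among 11 Galnt members 10 were higher, beside 47.1% of all genes above the floor. B3gnt6, B4galnt1 and Cmah differed by -0.68, -0.01 and -0.29. This comparison shares its arrays with those above.

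Genes that supply sugars to these enzymes stayed under 2-fold. All 7 measured genes of sialic acid supply, 6 of fucose supply and 14 of hexosamine and galactose supply were above the floor, and 0 were 2-fold apart in any comparison. Over all genes above the floor the share was 6.60%, and in sets this small a count of 0 lies near it.

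Enzymes that remove or modify the sugars, and the mucins that carry them, included a few larger differences. Of 15 other glycan-modifying enzymes above the floor, Neu3 and Neu1 alone reached 2-fold, in the Apc wild-type pair and between VhlΔIE/Apcmin/+ and VhlF/F. Over all genes above the floor 6.60% were 2-fold apart in at least 1 comparison. Neu3, a plasma membrane sialidase that acts on gangliosides, read 7.07 in VhlΔIE/Apcmin/+ against 6.08 in VhlF/F/Apcmin/+, and 7.48 in VhlΔIE against 6.07 in VhlF/F. Neu1, the lysosomal sialidase, read 9.37 against 10.31 in the Apc mutant pair and 9.43 against 10.62 in the Apc wild-type pair. The sialidases thus lay in opposite directions, with differences of 0.99 and 1.41 for Neu3 and of -0.94 and -1.20 for Neu1. Of 14 mucins and mucus proteins above the floor, Muc1, a membrane mucin, was the only one to reach 2-fold, a count near the share of all genes. Muc1 read 10.43 against 8.36 in the Apc mutant pair and 10.43 against 8.18 in the Apc wild-type pair, higher by 2.07 and 2.25. Muc2 differed by 0.26 and -0.15, and Muc13, another membrane mucin, by 0.10 and 0.06.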

How the data were processed

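Colon mucosa of 4 genotypes was measured on 1 Affymetrix array each, with 45101 probe sets. The authors deposited log2 values, and the submitters' processing notes name affy and RMA without versions. RMA brings the arrays to a shared distribution and compresses dim signals, so a shift common to all transcripts is not seen. The number of arrays limits the precision. The highest-mean probe set of 1 symbol stood for each gene, and all 74 member symbols matched RefSeq. Genes needed a log2 value of 6 on at least 1 array, above the 5.10 that the 15 bacterial control probe sets reached. Differences are 1 array minus another and were counted at 2-fold, with no test. Members and lists were chosen with earlier results of these data known. Values in all 4 arrays are given for members at least 2-fold apart and for others set by symbol, and differences or ranges for the rest. Alternatives changed the floor, probe set, normalization and threshold, or fitted an additive limma model with 1 residual degree of freedom. Counting and that fit were tested on simulated data. The genes simulated for the fit had additive differences and the same noise for every gene. They cannot show how the fit behaves where arrays depart from additivity, such as for B3gnt6. The tools were limma 3.58.1 in R 4.3.3, and pandas 2.3.3, numpy 2.4.6 and matplotlib 3.10.9 in Python 3.11.15.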

Additional observations from a re-analysis of the deposited data

Results flagged for a closer look

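B3gnt6, B4galnt1 and Cmah stood out because Vhl deletion went with opposite directions in the Apc backgrounds. The Vhl difference with the Apc mutation minus that without it was 4.32 for B3gnt6, 3.48 for B4galnt1 and 3.10 for Cmah on the log2 scale. Each rests on 4 arrays without replicates, and the difference between backgrounds was not tested.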

How the results depend on the processing

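No paired analysis was possible because each genotype has 1 array and the labels carry no replicate numbers. Over no floor, a floor of 7, values under 6 raised to 6, the mean over probe sets, probe sets without the suffixes _s_at, _x_at and _a_at, cyclic loess and a 1.5-fold threshold, 156 of 159 named differences moved by less than 1.5-fold, 3 moved by more, all under the mean over probe sets, where B4galnt1 differed by 1.28 for Vhl deletion with the Apc mutation and by -1.25 for the Apc mutation with floxed Vhl, and St8sia4 by 0.33 for Vhl deletion without the mutation, and 0 changed sign. A changed floor or threshold cannot alter a gene's difference, so those settings left the named differences as they were by construction. The 18 differences kept without suffixed probe sets came from the same probe sets as before. Only the mean over probe sets, raised values and cyclic loess could move a difference. Counts of members moved more. No share of all genes is given at the alternative settings, so these counts cannot be set beside those of all genes. At 1.5-fold, Vhl deletion with the Apc mutation gave 8 lower, Vhl deletion without it 6 higher and 10 lower, and both backgrounds together 4 higher and 4 lower. At 1.5-fold the Apc mutation with floxed Vhl gave 1 higher and 5 lower, the combined comparison 6 higher and 6 lower, and 6 members had a larger Vhl difference with the mutation. With the mean over probe sets, Vhl deletion without the Apc mutation gave 2 lower, both backgrounds 2 higher, the combined comparison 2 higher, the Apc mutation with deleted Vhl 1 higher, and 1 member had opposite Vhl differences. That setting left 45 members above the floor, and Cmah was not among them. Without suffixed probe sets, Vhl deletion with the Apc mutation gave 2 lower, without it 1 higher and 3 lower, and both backgrounds and the combined comparison 0 lower. There 43 members were left, because genes with suffixed probe sets alone, such as St8sia5, B4galt1, St3gal3 and St8sia4, dropped out. Without B3gnt6, B4galnt1 and Cmah, chosen after seeing the data, Vhl deletion gave 3 higher with the mutation and 2 lower without it. The additive limma fit called 2 members higher with Vhl deletion (Galnt6 and St8sia4) and 2 lower (B3gnt7 and St8sia5) at a Benjamini-Hochberg adjusted p of 0.05, and 0 in either direction for the Apc mutation, where 1 and 3 had an unadjusted p under 0.05. That fit takes the departure from additivity as its only measure of spread.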
